A study of Mus musculus with 3 samples.

Results

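The hyperosmolar stress response genes described here are the 6 genes Nfat5, Slc5a3, Slc6a6, Akr1b3, Slc38a2 and Sgk1, taken by symbol from a table of 21760 genes measured in mouse cornea. All 6 symbols were found, each on 1 row, and all 6 passed the filter on low counts. RNA was sequenced from 3 libraries, 1 for each group. Sham mice were cut beside the lacrimal glands, which were spared, and the excision group had its lacrimal gland removed. The PNU group was given eyedrops 3 times a day of PNU-282987, a compound that activates the α7 nicotinic acetylcholine receptor. The series asks what this receptor does in dry eye disease. The labels name no strain or age, and they do not say whether corneas were pooled or whether mice given eyedrops had also lost the gland.

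Loss of tear volume concentrates the tear film, and hyperosmolar tears draw water out of the cells of the ocular surface. Cells answer by taking up salts and then by replacing them with organic osmolytes such as myo-inositol, taurine, sorbitol and betaine, which restore volume without disturbing proteins. NFAT5, also called TonEBP, is the transcription factor that drives this second phase: it binds tonicity-responsive elements and raises transcription of the osmolyte transporters and of aldose reductase. SLC5A3 imports myo-inositol with sodium, SLC6A6 imports taurine with sodium and chloride, AKR1B3 is mouse aldose reductase, which makes sorbitol from glucose, SLC38A2 is the system A transporter of small neutral amino acids, and SGK1 is a kinase induced by glucocorticoids and by cell shrinkage that acts on sodium transport.

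Total counts lay between 37692972 and 39616004 per library. Corneal identity was clear in all 3, with Krt12, the cornea-specific keratin, at 1541851 counts in the sham library, 1135144 after excision and 1634592 in the PNU library. The whole corneal epithelial list summed to 117208, 110268 and 134713 CPM (counts scaled to a common library size). Markers of other tissues and cells differed between the libraries. Lens markers summed to 897 CPM in sham, 171 in excision and 807 in PNU, with 4 of the lens genes at 0 in excision, and corneal endothelial markers summed to 1112, 591 and 893 CPM. Goblet cell and gland markers summed to 2206, 3635 and 5706 CPM, a sum that rests mostly on the keratin gene Krt13 (78979, 114747 and 179377 counts). These 4 secretory genes of that list were almost absent outside the PNU library: the mucin gene Muc5ac had 1, 11 and 2980 counts, Muc5b had 1, 0 and 676, Gp2 had 5, 4 and 3801, and Scgb2b2 had 0, 0 and 768. Of 13 tested genes of the list, 10 were at least 2-fold higher in PNU than in sham and 7 than in excision, while 3 were higher and 1 (Spdef) lower in excision than in sham. Of 10 retinal genes tested, 7 were at least 2-fold lower in excision than in sham, and 8 were higher in PNU than in excision and 3 than in sham. The retinal markers summed to 175, 216 and 155 CPM. That sum rests mostly on Guca1a (5999, 7720 and 4650 counts), which was highest in excision and lowest in PNU, unlike most of the retinal genes. Stromal markers summed to 1873, 1249 and 1235 CPM, iris and ciliary body markers to 10.7, 11.3 and 7.03, and red blood cell genes to 72.3, 17.4 and 9.73. With 1 library per group there was no spread between animals to set a difference against, so no test was made and every ratio below compares 2 libraries. The range in brackets after a ratio is its 95% interval for counting error, which leaves out any spread between animals. Wherever 3 values stand together without labels, their order is sham, excision, PNU, and 3 medians follow the order excision over sham, PNU over excision, PNU over sham. In such bulk samples fewer cells of a type and less RNA per cell cannot be told apart.

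Of the 6 genes, 4 had a promoter window in the RefSeq table (GRCm38.p6), each running from 250 bases before to 50 after an annotated start. The windows of Nfat5 and Slc38a2 are shown because these genes had nearly the same ratios across the libraries, and that of Slc5a3 because it is shared with a neighbour. They are written 5′ to 3′ on the gene's own strand, with CG pairs in capitals.

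Nfat5, chr8:107293220-107293519, plus strand: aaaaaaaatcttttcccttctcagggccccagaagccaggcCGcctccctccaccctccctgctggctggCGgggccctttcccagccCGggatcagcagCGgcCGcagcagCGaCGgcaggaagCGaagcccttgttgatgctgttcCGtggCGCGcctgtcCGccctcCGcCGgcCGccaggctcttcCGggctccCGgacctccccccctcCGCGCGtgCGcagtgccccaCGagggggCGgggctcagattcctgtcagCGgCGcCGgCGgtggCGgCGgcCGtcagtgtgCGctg
Slc38a2, chr15:96699679-96699978, minus strand: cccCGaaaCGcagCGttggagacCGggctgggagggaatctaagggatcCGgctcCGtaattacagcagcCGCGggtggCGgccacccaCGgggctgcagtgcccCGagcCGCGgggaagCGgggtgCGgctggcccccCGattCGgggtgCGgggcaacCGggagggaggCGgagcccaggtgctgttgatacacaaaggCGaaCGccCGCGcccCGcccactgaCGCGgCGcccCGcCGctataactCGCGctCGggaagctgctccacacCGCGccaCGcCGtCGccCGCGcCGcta
Slc5a3, chr16:92058072-92058371, plus strand: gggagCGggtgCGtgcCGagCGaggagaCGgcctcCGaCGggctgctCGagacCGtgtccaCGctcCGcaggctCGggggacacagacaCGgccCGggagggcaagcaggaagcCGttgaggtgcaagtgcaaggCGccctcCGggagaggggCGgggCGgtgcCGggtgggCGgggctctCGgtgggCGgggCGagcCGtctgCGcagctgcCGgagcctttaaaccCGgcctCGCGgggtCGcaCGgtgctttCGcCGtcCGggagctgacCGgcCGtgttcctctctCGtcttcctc

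The windows held 31, 41 and 38 CG pairs for Nfat5, Slc38a2 and Slc5a3. The median over all 32851 windows was 7, and 10.6% of windows held more than 30. All 3 are therefore windows dense in CG pairs. The Slc5a3 window shares 286 of its 300 bases with that of Mrps6, a mitochondrial ribosomal protein gene on the same strand whose start lies 14 bases away.

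The core of the tonicity-responsive element, TGGAAA, was searched on both strands. It was absent from the windows of Nfat5, Slc38a2 and Slc5a3 and present in 2 of the 6 windows of Sgk1, which has several alternative starts. Of all windows, 21.4% held the core and 4.96% held the longer published consensus of 11 letters, which contains the core and which no window of these 4 genes held. The matches lay 105 and 163 bases upstream of their starts. They are shown within 60 bases on the plus strand, core in capitals, the upper one as its reverse complement.

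Sgk1, chr10:21882051-21882110: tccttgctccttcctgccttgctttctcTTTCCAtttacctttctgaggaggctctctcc
Sgk1, chr10:21993699-21993758: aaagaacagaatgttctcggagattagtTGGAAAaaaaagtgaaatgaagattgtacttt

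A match in so short a window is a description of these letters and says nothing of binding.

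The 6 genes spanned a wide range of levels. Per kilobase of merged exon (GENCODE lengths on GRCm38, since the annotation used for counting is not given), Slc6a6 was at 31.3 CPM per kb in sham, 48.8 in excision and 57.1 in PNU. Akr1b3 was at 41.9, 37.1 and 47.7 CPM per kb, and Sgk1 at 41.6, 44.2 and 47.7. On these lengths the 3 genes lay close together, with Akr1b3 the highest in sham, and Slc6a6 in excision and PNU. A merged length joins the exons of all annotated transcripts of a gene (8.38 kb for Akr1b3, 8.46 for Slc6a6, 4.90 for Sgk1). Where the main transcript is shorter, the level per kilobase is understated, so the order of these 3 genes is not settled. Slc38a2 followed at 19.4, 21.3 and 15.9 CPM per kb. Nfat5, the regulator, was lower at 6.03, 6.57 and 4.86 CPM per kb, and Slc5a3 was last in every library at 0.314, 0.207 and 0.491. Nfat5 and Slc38a2 thus kept the same ranks in all 3 libraries, as did Slc5a3.

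**Figure D1:**
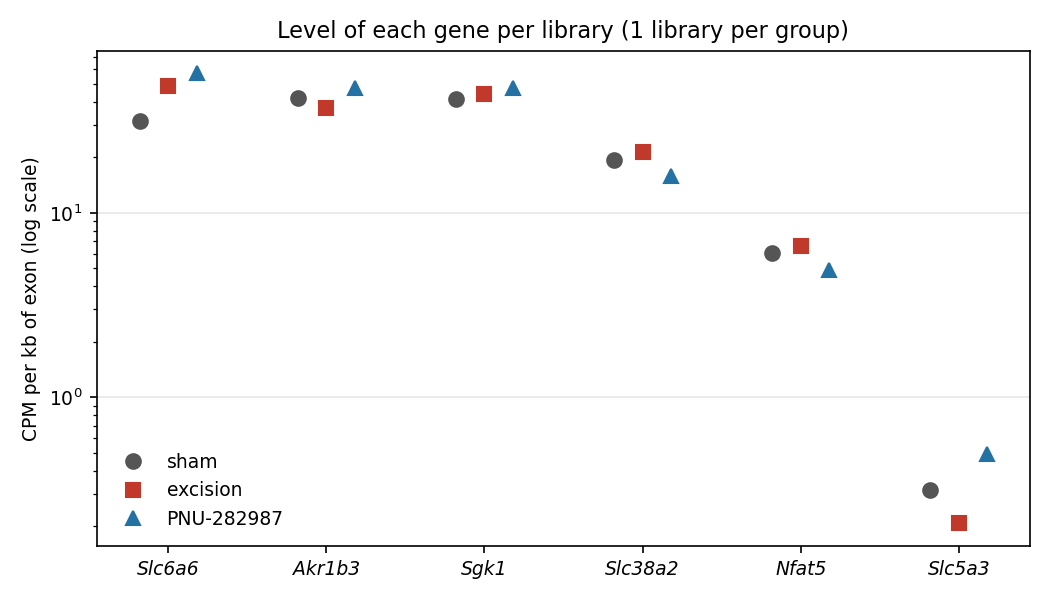
Level of each of the 6 genes in each library, in CPM per kilobase of merged exon on a log axis. Each point is 1 library, and there are no replicates. The order of the genes depends on the lengths used. Slc6a6, Akr1b3 and Sgk1 lie between 31.3 and 57.1, and Slc5a3 lies below 0.5 in all 3 libraries.

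Between excision and sham, none of the 6 genes differed by at least 2-fold. Among all 14180 genes tested (those reaching 20 counts in any library), 4.01% were at least 2-fold higher and 5.48% at least 2-fold lower, with an interval that excluded equal levels. At a looser limit of 1.5-fold, Slc6a6 was higher and Slc5a3 lower, where 8.22% of all genes were higher and 9.03% lower. The median log2 ratio of the 6 genes was 0.10, beside 0.00 (rounded) over all genes tested. Of the 6 ratios, 4 lay above equal levels and 2 below. Scaled to corneal epithelial markers, the counting intervals of Nfat5, Slc38a2 and Sgk1 included equal levels.

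For PNU against excision, Slc5a3 was the single gene at least 2-fold apart, and it was higher. Of all genes, 3.90% were at least 2-fold higher and 5.62% lower. The 1.5-fold limit added no other of the 6, with 7.62% of all genes higher and 11.2% lower. The median log2 ratio of the 6 was 0.17.

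For PNU against sham, none was at least 2-fold apart, with 2.58% of all genes higher and 4.96% lower by that limit. Slc6a6 and Slc5a3 were at least 1.5-fold higher, as were 5.02% of all genes, while 9.70% were lower and none of the 6 was among these. The median log2 ratio was 0.19. The comparisons share libraries, so their values for a gene are not independent of each other.

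**Figure D2:**
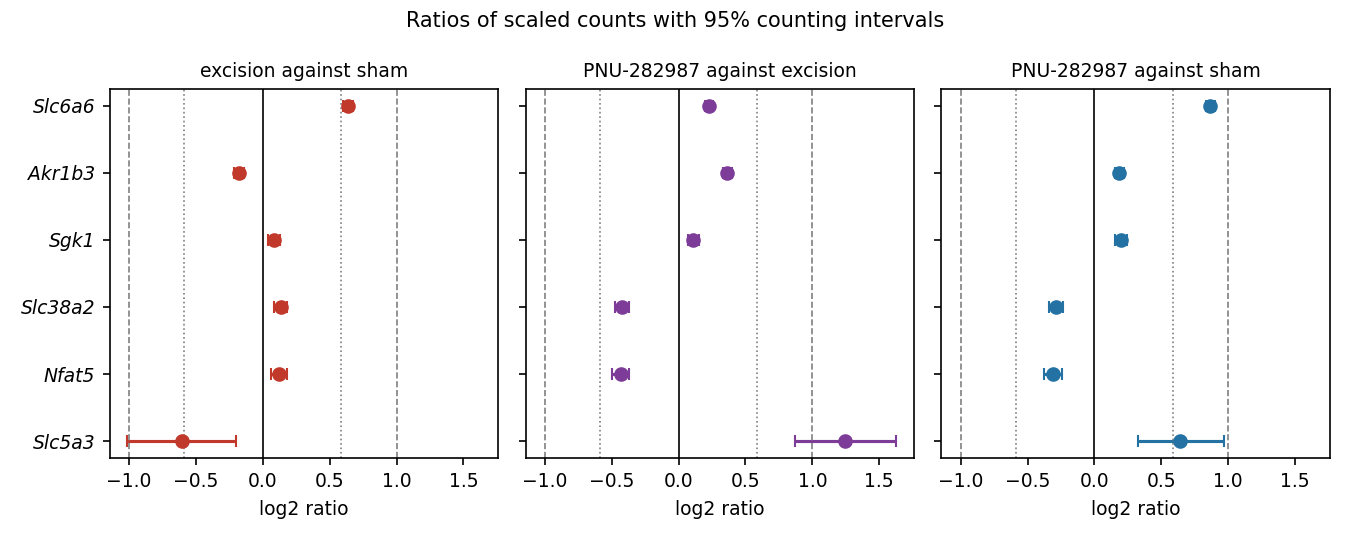
Log2 ratio of scaled counts for the 6 genes in the 3 comparisons, with 95% counting intervals; dashed lines mark 2-fold and dotted lines 1.5-fold. Slc5a3 lies past 2-fold for PNU against excision, at 1.24, and Slc6a6 reaches 0.87 for PNU against sham.

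Nfat5 (gene ID 54446), the transcription factor of the response, had 4331 counts in the sham library, 4482 in the excision library and 3472 in the PNU library. The PNU library held the lowest value. The excision library was 1.09-fold higher than sham (1.04 to 1.14), a sign that turned when libraries were scaled to corneal epithelial markers (log2 ratio -0.003). PNU was 1.35-fold lower than excision (1.29 to 1.41) and 1.24-fold lower than sham (1.19 to 1.30). Differences of that size were common: between PNU and excision 17.8% of tested genes were lower by more. In either direction, 32.2% differed by more.

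NFAT5 belongs to the family of Rel-homology factors with the calcineurin-dependent NFATs and the NF-kB subunits. Of 9 such genes, all tested, none was at least 2-fold higher or lower in any comparison, where the shares of all genes given above leave less than 1 gene in 9. Their median log2 ratios were 0.11 for excision over sham, -0.17 for PNU over excision and 0.11 for PNU over sham. Nfatc2 had the same order of libraries as Nfat5, with 1402, 1700 and 1061 counts (named after its values were seen).

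Of 16 genes tested of the signalling upstream of NFAT5, which include the p38 kinase genes Mapk14 and Mapk11, their activators Map2k3 and Map2k6, the scaffold gene Ccm2 and the exchange factor gene Akap13, 1 (6.25%, beside 4.01% of all genes) was at least 2-fold higher in excision than in sham and none was lower (5.48% of all genes). It was Fyn, a Src-family kinase gene with only 18 counts in the sham library, 38 in the excision library and 22 in the PNU library (2.22-fold, 1.24 to 4.13). No gene of that list was at least 2-fold apart in the other comparisons, and the list medians were 0.11, 0.13 and 0.18. Fyn is also expressed in T cells, whose markers summed to 0.435, 8.38 and 1.06 CPM, and the part of such cells in its value was not tested. Nqo1, a quinone reductase gene that neighbours Nfat5, had 2686, 2162 and 2730 counts, lowest in excision where Nfat5 was highest.

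Slc6a6 (gene ID 21366), the taurine transporter gene, had 10350 counts in the sham library, 15306 in the excision library and 18748 in the PNU library. It was lowest in sham and higher in both other libraries. The excision library was 1.56-fold higher than sham (1.52 to 1.60) and PNU was 1.82-fold higher (1.78 to 1.87), while PNU was 1.17-fold higher than excision (1.15 to 1.20). For PNU against sham, 3.42% of tested genes were higher by more, and 10.3% differed by more in either direction. Under 4 other library scalings its fold over sham ran from 1.43 to 1.56 in excision and from 1.59 to 1.83 in PNU, and the excision value fell below 1.5-fold under total counts and under corneal epithelial markers.

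Of the taurine synthesis genes, 1 shared this order of libraries under the scaling used here. Cdo1, which encodes the cysteine dioxygenase that starts taurine synthesis, had 26838, 26675 and 34836 counts. After scaling it was 1.31-fold higher in PNU than in sham (1.28 to 1.33) and 1.05-fold higher in excision (1.03 to 1.06). Its unscaled count was slightly lower in excision than in sham, and the totals of these libraries were nearly equal. The order of sham and excision for Cdo1 thus rests on the scaling. Csad, the decarboxylase gene of the same path, had 880, 741 and 869 counts and was lowest in excision. Slc6a13, a related transporter gene, was near the detection limit with 6, 6 and 4 counts. The basal and limbal keratin gene Krt15 and the conjunctival keratin gene Krt4 had the same order as Slc6a6, at 65935, 137853 and 241041 counts and at 3013, 14142 and 21643 counts. Krt15 was the only one of 20 corneal epithelial markers at least 2-fold higher in excision than in sham (5%, beside 4.01% of all genes). Krt12 of that list was 1.29-fold lower in excision than in sham. Of the 13 goblet and gland markers, which include Krt4, 3 were at least 2-fold higher in excision and 10 in PNU than in sham. In excision 1 of them, Spdef, was at least 2-fold lower than in sham. The part of these cells in the Slc6a6 values was not tested.

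Slc5a3 (gene ID 53881), the myo-inositol transporter gene, had 134 counts in the sham library, 84 in the excision library and 208 in the PNU library. It had the lowest level per kilobase of the 6 genes and the widest ratios. PNU was 2.37-fold higher than excision (1.83 to 3.09) and 1.56-fold higher than sham (1.25 to 1.95), and excision was 1.52-fold lower than sham (1.15 to 2.02). Of all tested genes, 3.00% were higher by more for PNU against excision, and 7.09% differed by more in either direction. The value for PNU against sham fell below 1.5-fold under total counts (log2 ratio 0.563). It dropped to 1.37-fold when libraries were scaled to corneal epithelial markers. Lens markers were also lowest in excision, with 16 of 17 at least 2-fold lower than in sham, as were corneal endothelial markers, with 9 of 12 lower. In PNU against excision, 16 of 17 lens, 8 of 12 endothelial, 8 of 10 retinal and 7 of 13 goblet and gland markers were at least 2-fold higher. In PNU against sham, where Slc5a3 was also higher, this held for 0 of 17 lens, 1 of 12 endothelial, 3 of 10 retinal and 10 of 13 goblet and gland markers. The part of such tissues in the Slc5a3 values was not tested.

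Slc5a3 shares the start region shown above with Mrps6, and how reads shared by overlapping genes were counted is not given. Mrps6 had 550, 363 and 513 counts. It was 1.44-fold lower in excision than in sham (1.26 to 1.65), 1.35-fold higher in PNU than in excision (1.18 to 1.55), and its interval for PNU against sham included equal levels (1.07-fold lower, 0.944 to 1.20). Counts of Slc5a3 per count of Mrps6 were 0.244 in sham (0.200 to 0.295), 0.231 in excision (0.180 to 0.294) and 0.405 in PNU (0.343 to 0.477). The sum of both genes was 1.54-fold higher in PNU than in excision (1.37 to 1.74) and 1.06-fold higher than in sham (0.953 to 1.18), so the 2-fold difference from excision and the difference from sham were in Slc5a3 and not in the sum. Kcne2, another neighbour, had 0, 1 and 2 counts.

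Inositol metabolism held a single gene at least 2-fold apart. Impa2, an inositol monophosphatase gene, had 391 counts in the sham library, 347 in the excision library and 169 in the PNU library, which was 2.15-fold lower than excision (1.78 to 2.60) and 2.30-fold lower than sham (1.92 to 2.77). Its relative Impa1 went the other way, at 1233, 984 and 1441 counts. Isyna1, the synthase gene for inositol phosphate, had 634, 536 and 626 counts, and Slc2a13, a proton-coupled inositol transporter gene, had 12, 4 and 10.

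Akr1b3 (gene ID 11677), the aldose reductase gene, had 13721 counts in the sham library, 11532 in the excision library and 15532 in the PNU library. It was lowest in excision. Excision gave a value 1.13-fold lower than sham (1.10 to 1.16), PNU was 1.29-fold higher than excision (1.26 to 1.32) and 1.14-fold higher than sham (1.11 to 1.16). The last of these turned sign under scaling to corneal epithelial markers (log2 ratio -0.006). Lens and endothelial markers were lowest in the same library and gland markers highest in PNU, and their part in these values was not tested.

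Sord, which encodes the sorbitol dehydrogenase that acts after aldose reductase, had the same order of libraries, at 3652, 2851 and 4323 counts. It was 1.45-fold higher in PNU than in excision (1.38 to 1.52). The neighbouring aldo-keto reductase genes can share reads with Akr1b3 because their sequences resemble it. Akr1b7 had 14001, 14535 and 17480 counts, Akr1b10 had 2627, 2166 and 2593, and Akr1b8 had 147, 177 and 205. Summed with them, excision differed from sham by 1.02-fold, again lower, with an interval that ended at 1.04, and PNU was 1.20-fold higher than excision (1.19 to 1.22). The family sum thus had a smaller deficit in excision than Akr1b3. Akr1b7 had more counts than Akr1b3 in every library, so the sum does not measure Akr1b3 again. Read sharing between these genes was not measured.

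Slc38a2 (gene ID 67760), the amino acid transporter gene, had 6699 counts in the sham library, 6990 in the excision library and 5465 in the PNU library. Like Nfat5 it was lowest in PNU. The excision library was 1.10-fold higher than sham (1.06 to 1.14), PNU was 1.34-fold lower than excision (1.29 to 1.39) and 1.22-fold lower than sham (1.18 to 1.26). Scaled to corneal epithelial markers, the excision difference shrank to a log2 ratio of 0.009.

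Slc38a2 is also a target of ATF4, the factor of the amino acid and stress response. Atf4 itself had 7940 counts in the sham library, 8561 in the excision library and 5629 in the PNU library, the same order of libraries, and was 1.59-fold lower in PNU than in excision (1.54 to 1.65). All 22 listed genes of that response were tested. In excision against sham, 1 was at least 2-fold higher and 2 lower (4.55% and 9.09%, beside 4.01% and 5.48% of all genes). In PNU against excision 1 was higher and 1 lower (4.55% each, beside 3.90% and 5.62%). In PNU against sham 1 was lower (4.55%, beside 4.96%). Atf3, a stress-induced factor gene, had 71, 166 and 40 counts and was 4.34-fold lower in PNU than in excision (3.06 to 6.30). The list medians were 0.00 (rounded), -0.15 and -0.09 for excision over sham, PNU over excision and PNU over sham.

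The relatives that neighbour Slc38a2 on its chromosome had wider ratios. Slc38a1, another system A transporter gene, had 559, 111 and 310 counts and was 4.79-fold lower in excision than in sham (3.90 to 5.92). Slc38a4 had 47, 12 and 10 counts and was 3.72-fold lower in excision (1.94 to 7.71) and 4.67-fold lower in PNU (2.33 to 10.4) than in sham. Lens and endothelial markers were lowest in excision, as Slc38a1 was, and their part in its values was not tested. Slc38a4 was low in both other libraries, as were the sums of stromal markers (1873, 1249 and 1235 CPM) and red blood cell genes (72.3, 17.4 and 9.73 CPM). Lens and endothelial markers summed to 807 and 893 CPM in PNU, beside 897 and 1112 in sham. The part of these tissues in the Slc38a4 values was not tested.

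Sgk1 (gene ID 20393), the kinase gene, had 7972 counts in the sham library, 8042 in the excision library and 9082 in the PNU library. It had the narrowest range of the 6 genes. The excision library was 1.06-fold higher than sham (1.03 to 1.09), with the sign turned under scaling to corneal epithelial markers (log2 ratio -0.04). PNU was 1.15-fold higher than sham (1.11 to 1.18) and 1.08-fold higher than excision (1.05 to 1.11), and the ratio to sham shrank to a log2 value of 0.003 under that scaling.

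Of 14 other genes of the SGK1 family and its path, none was at least 2-fold higher in excision than in sham (4.01% of all genes). Lower by that limit were 3 (21.4%, beside 5.48% of all genes). These were Scnn1b and Scnn1g, subunits of the epithelial sodium channel that SGK1 keeps at the membrane, and Atp1b1, a subunit of the sodium pump. Scnn1b had 114, 20 and 57 counts (5.42-fold lower, 3.35 to 9.20), Scnn1g had 38, 12 and 20 (3.01-fold lower, 1.54 to 6.33), and Atp1b1 had 4190, 731 and 2855 (5.45-fold lower, 5.04 to 5.90). In PNU against excision, Atp1b1 and Scnn1b were at least 2-fold higher (14.3%, beside 3.90% of all genes). None of the 14 was past the limit for PNU against sham. Atp1b1 is in the corneal endothelial marker list as well, of which 9 of 12 tested genes were at least 2-fold lower in excision than in sham. Scnn1a, the remaining subunit gene of the channel, went the other way with 1523, 2255 and 1884 counts. Nedd4l, the ubiquitin ligase gene that SGK1 restrains, had 1496, 1393 and 1639 counts. The 14 genes had median log2 ratios of 0.04, 0.08 and 0.15.

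Glucocorticoid-responsive genes did not share a direction. In excision against sham, 2 of 14 genes were at least 2-fold higher and 1 lower (14.3% and 7.14%, beside 4.01% and 5.48% of all genes). Per1, a clock gene, had 776, 2225 and 1468 counts (3.02-fold higher, 2.78 to 3.28), Dusp1, a MAP kinase phosphatase gene, had 2135, 4228 and 2200 (2.08-fold higher, 1.98 to 2.20), and the sulfotransferase gene Sult1a1 had 308, 109 and 530 (2.69-fold lower, 2.15 to 3.37). In PNU against sham, Fkbp5, a co-chaperone of the glucocorticoid receptor, was the one gene at least 2-fold higher, at 3211, 3302 and 7077 counts (2.22-fold, 2.13 to 2.31). That gene is 7.14% of the list, beside 2.58% of all genes. In PNU against excision, Fkbp5 and Sult1a1 were higher and Dusp1 lower by at least 2-fold (14.3% and 7.14%, beside 3.90% and 5.62%). The list medians were 0.26, -0.13 and 0.08 for excision over sham, PNU over excision and PNU over sham. The receptor gene Nr3c1 had 2169, 1972 and 2718 counts. Sgk1 was within 1.15-fold in all 3 comparisons.

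Ratios between genes of 1 library do not depend on how libraries are scaled. Counts of Slc38a2 per count of Nfat5 were 1.55 in sham, 1.56 in excision and 1.57 in PNU. Their counting intervals, which ran from 1.49 to 1.64 in all, overlapped. In the plane of the log2 ratios to sham the pair lay 0.03 apart, and 11 of 7136 genes with at least 500 counts in every library lay nearer to Nfat5. The pair was noted after its values were seen, and 3 libraries are few for likeness.

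The other genes parted from Nfat5. Counts of Slc6a6 per count of Nfat5 were 2.39 in sham (2.31 to 2.48), 3.41 in excision (3.30 to 3.53) and 5.40 in PNU (5.21 to 5.60). Akr1b3 per Nfat5 was 3.17, 2.57 and 4.47, lowest in excision and highest in PNU. Sgk1 per Nfat5 was 1.84, 1.79 and 2.62, with overlapping intervals in sham and excision. Slc6a6 and Akr1b3 moved apart as well, at 0.754, 1.33 and 1.21 counts of Slc6a6 per count of Akr1b3. With the library scaling used throughout (TMM, the trimmed mean of M-values) the 6 genes thus showed 3 different orders of the libraries, each held by a pair of genes, and in no comparison did all 6 lie on the same side. Under scaling to corneal epithelial markers the orders of Nfat5, Akr1b3 and Sgk1 changed.

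**Figure D3:**
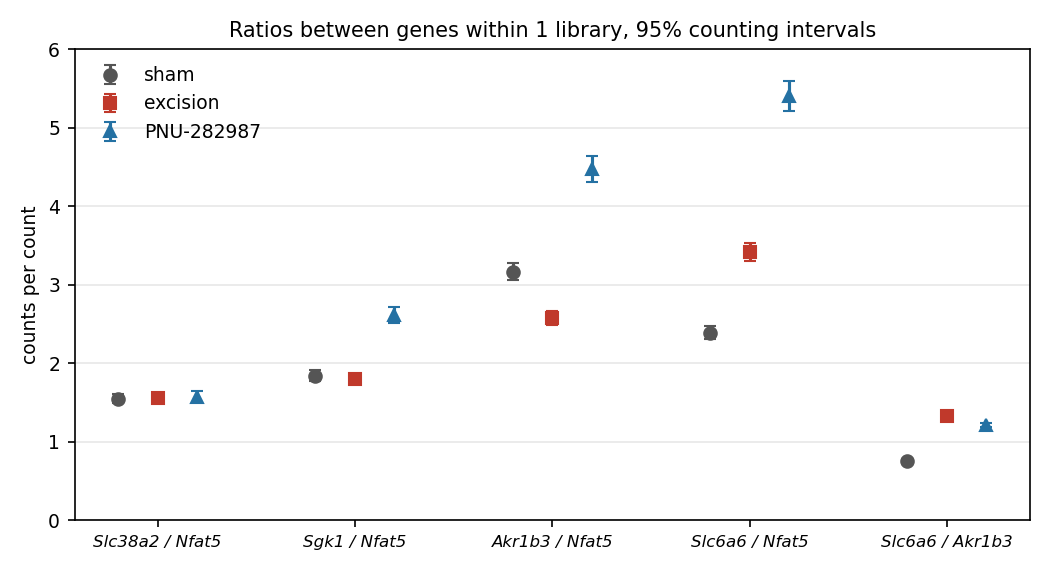
Counts of 1 gene per count of another within each library, with 95% counting intervals; the axis starts at 0 and compares libraries, since the height of a ratio also depends on gene length. Slc38a2 per Nfat5 stays between 1.55 and 1.57, while Slc6a6 per Nfat5 goes from 2.39 in sham to 5.40 in PNU.

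**Figure D4:**
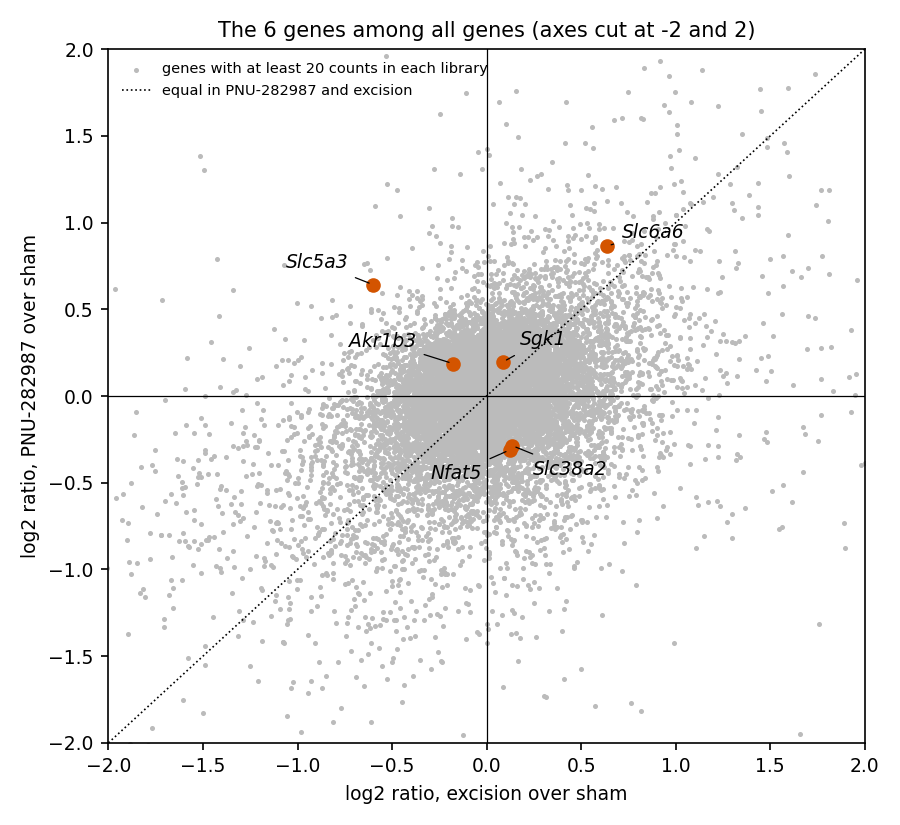
Log2 ratio of PNU over sham against that of excision over sham, with the 6 genes in orange among genes reaching 20 counts in every library (grey) and a dotted line where PNU and excision are equal. Nfat5 and Slc38a2 overlap at 0.12 and 0.13 on the horizontal axis, and Slc5a3 lies at -0.60 and 0.64.

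For the 2 genes past 1.5-fold, the genes with the most similar pattern were found among 7138 genes with at least 500 counts in every library, by distance in that plane over the 3 libraries. For Slc6a6 they were Snx31, a sorting nexin gene, at a distance of 0.12, Ceacam1, a cell adhesion gene, at 0.12, and the keratin gene Krt23 at 0.14. For Slc5a3 they were Ccn2, a matricellular growth factor gene, at 0.14, N4bp2l1 at 0.15, and the cytochrome P450 gene Cyp39a1 at 0.16. Ccn2 had 1054 counts in the sham library, 656 after excision and 1485 with PNU.

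Further genes of the tonicity response were followed in lists. Among other NFAT5 targets and tonicity genes, 17 were tested. In excision against sham, 1 was at least 2-fold higher and 2 lower (5.88% and 11.8%, beside 4.01% and 5.48% of all genes). None was apart between PNU and excision (3.90% and 5.62% of all genes). In PNU against sham 1 was higher (5.88%, beside 2.58%). Hspb8, a small heat shock protein gene, had 42, 140 and 95 counts (3.51-fold higher in excision, 2.47 to 5.08, and 2.27-fold higher in PNU, 1.57 to 3.35, than in sham). Hsph1, a large chaperone gene, had 1244, 514 and 1038 (2.30-fold lower in excision, 2.07 to 2.55). Aqp1, a water channel gene of the corneal endothelium and stroma, had 21396, 7970 and 13819 (2.55-fold lower, 2.49 to 2.62), in the library where endothelial markers were lowest. Aqp5, the epithelial water channel gene, had 234339, 243455 and 267419.

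The HSP70 genes Hspa1a and Hspa1b, classical NFAT5 targets whose near-identical copies can exchange reads, had 4025, 3685 and 5855 counts and 12813, 11079 and 17460 counts. They were 1.52-fold (1.46 to 1.58) and 1.51-fold (1.47 to 1.54) higher in PNU than in excision. Hspa4l, another osmotic stress chaperone gene, had 300, 209 and 358. All 3 had their lowest scaled value in excision, as did Akr1b3 and Slc5a3, although the interval of Hspa1a for excision against sham included equal levels (1.04-fold lower, 0.993 to 1.09). Lens markers were lowest there too and gland markers highest in PNU, and their part was not tested. Tsc22d2, an osmotically regulated gene, had the reverse order of Hspa4l, at 789, 1175 and 690 counts. The list medians were 0.32, -0.14 and -0.07 for excision over sham, PNU over excision and PNU over sham.

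Of 18 tested genes of osmolyte transport and metabolism, none was at least 2-fold apart in excision against sham, and Impa2 was the one lower gene in each of the other comparisons, with none higher. That 1 gene is 5.56% of the list, near the 5.62% of all genes lower in PNU than in excision and the 4.96% lower in PNU than in sham. The betaine transporter gene Slc6a12 was not found by symbol among the 21760 genes, so it has no value here. Chdh, the choline dehydrogenase gene that makes betaine, had 93, 63 and 61 counts, and Gpcpd1, which splits the osmolyte glycerophosphocholine, had 7565, 7042 and 7315. The list medians were -0.06, 0.16 and 0.19.

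Of 19 tested channels and cotransporters of cell volume, none was at least 2-fold apart in excision against sham. In PNU against excision 1 was lower (5.26%, beside 5.62% of all genes), and in PNU against sham 1 was higher (5.26%, beside 2.58%). Trpv4, an osmotically gated cation channel gene, had 899, 1067 and 558 counts and lay at the limit for PNU against excision (2-fold lower, 1.80 to 2.22). Stk39, the kinase gene that activates the sodium and chloride cotransporters, had 84, 100 and 191 counts and was 2.29-fold higher in PNU than in sham (1.76 to 2.99). Slc12a2, the main cotransporter of volume recovery, had 17028, 19586 and 18345 counts. Lrrc8a, the obligate subunit of the volume-regulated anion channel, had 554, 833 and 794. Median log2 ratios of this list were 0.28, -0.13 and 0.02.

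Inflammatory genes linked to hyperosmolar stress of the ocular surface had wide ratios in both directions. Of 20 listed, 11 were tested. In excision against sham 2 were at least 2-fold higher and 4 lower (18.2% and 36.4%, beside 4.01% and 5.48% of all genes). In PNU against excision 2 were higher and 1 lower (18.2% and 9.09%, beside 3.90% and 5.62%). In PNU against sham 2 were higher and 3 lower (18.2% and 27.3%, beside 2.58% and 4.96%). The list medians were -0.59, 0.15 and -0.01. Casp1, the inflammasome protease gene, had 3 counts in the sham library, 99 in the excision library and 196 in the PNU library (34.7-fold higher in excision, 11.5 to 171, on 3 counts in sham). Mmp3, a stromelysin gene, had 97, 505 and 116. The neutrophil chemokine genes Cxcl1 and Cxcl2 had 100, 13 and 12 and 225, 19 and 22, the prostaglandin synthase gene Ptgs2 had 40, 17 and 38, and the adhesion gene Icam1 had 65, 41 and 138. The cytokine gene Tnf, also an NFAT5 target, had 816, 352 and 337 and was 2.20-fold lower in excision (1.94 to 2.50) and 2.41-fold lower in PNU (2.12 to 2.74) than in sham. Mmp9, the gelatinase often measured in dry eye, had 4, 3 and 1 counts, Il1b had 10, 12 and 2, and Nlrp3 had 2, 1 and 0, all below the minimum of 20 counts. Interferon-stimulated genes, macrophage markers and neutrophil markers differed between the same libraries, summing to 659, 3340 and 551 CPM, to 203, 309 and 215 CPM and to 59.7, 14.1 and 31.6 CPM, and the part of such cells in these values was not tested.

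**Figure D5:**
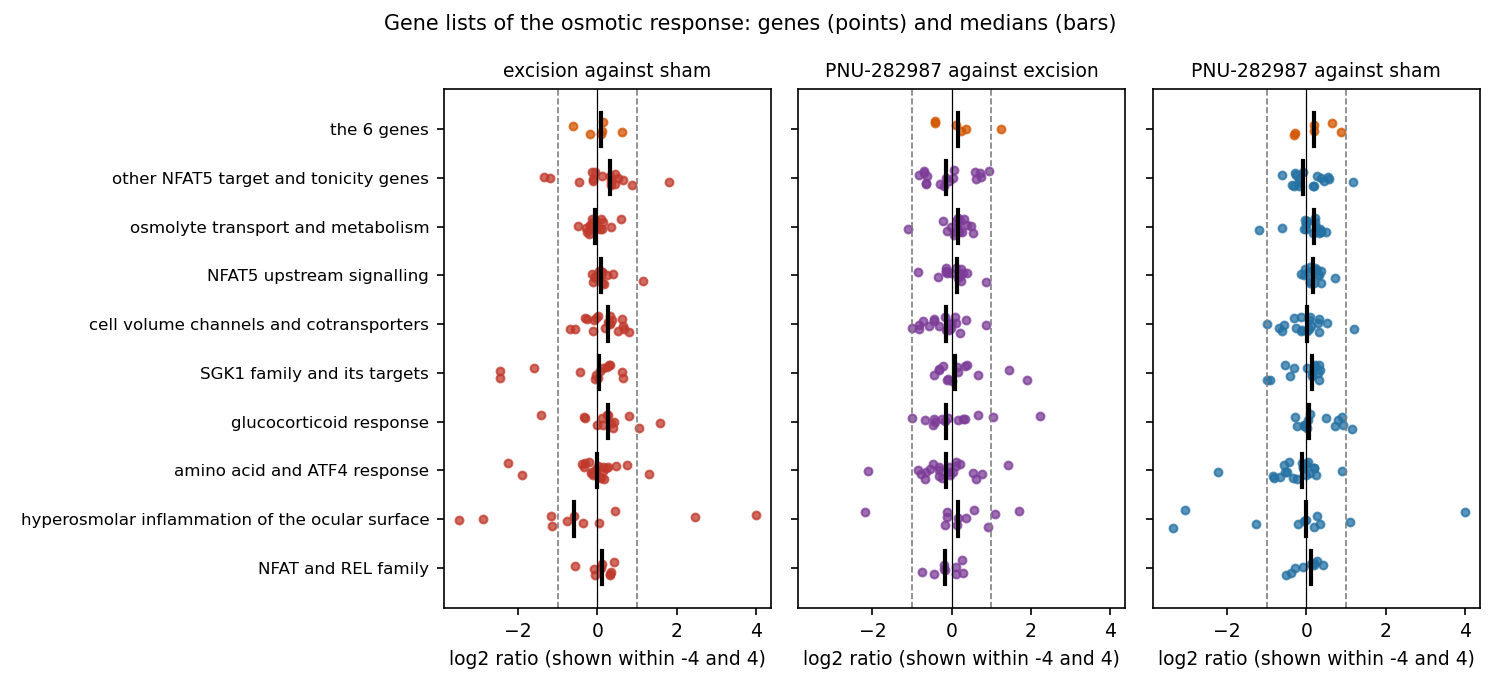
Log2 ratios of the 6 genes (orange) and of the genes of 9 lists of the osmotic response in the 3 comparisons; each point is a gene, each bar a list median, dashed lines mark 2-fold, and values past 4 are drawn at 4 (Casp1). The medians lie between -0.59 and 0.32, the widest spread is in the inflammatory list, and no list of transporters or signalling genes lies past 2-fold as a whole.

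Over these lists together, 142 genes other than the 6 were tested. In excision against sham 4.93% were at least 2-fold higher and 8.45% lower, in PNU against excision 4.93% and 3.52%, and in PNU against sham 3.52% and 3.52%. The background over all genes, given above, was 4.01% and 5.48%, 3.90% and 5.62%, and 2.58% and 4.96%.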

How the data were processed

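Mouse corneal RNA was extracted with TRIzol and made into libraries with the VAHTS Universal V6 kit, per the labels' protocols. The deposited table gives counts per gene, not normalized, in 3 libraries. HTSeq and R 3.2.0 are named in the submitters' processing notes. For aligner, build, annotation and strand setting, the sources used here give nothing.

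TMM factors from edgeR 4.0.16 (R 4.3.3) scaled the sham library by 1.04, excision by 0.985 and PNU by 0.980. Any gene reaching 20 counts in 1 library or more, 14180 in all, was compared in Python 3.11.15 (NumPy 2.4.6, pandas 2.3.3, SciPy 1.17.1, matplotlib 3.10.9). A ratio of scaled counts has an exact conditional binomial (Clopper-Pearson) 95% interval, which covers counting error alone, as PCR copies cannot be told from separate molecules. A count of 0 was set to 3 counts, which is at most 0.0808 CPM. Higher and lower genes are those past 2-fold, or 1.5-fold where stated, whose interval excluded equal levels. The scheme was tested on simulated data that held counting error alone, so that test cannot bear on spread between animals.

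Values were read for the 6 genes, for 10 pathway lists (1 of them the neighbours of the 6) and for 12 marker lists. Promoters come from RefSeq (GRCm38.p6) and exon lengths from GENCODE. The members and lists were chosen with earlier results of these data known. Genes named are all 6, up to 4 per list past 2-fold (up to 6 for signalling, osmolyte, SGK1 and glucocorticoid lists), neighbours of the 6, and the 3 most similar genes of those past 1.5-fold. Other list members are named for their role, with their values already seen. The alternatives tried were 4 library scalings, 2 count filters and 2 fold limits. Counting Slc5a3 with Mrps6 and Akr1b3 with its neighbours was added after the data were seen.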

Additional observations from a re-analysis of the deposited data

How the results depend on the processing

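No paired analysis was possible because each group has 1 library and the groups share only the number 1. Depth limited Slc5a3 most, as its intervals show. The count filters and fold limits cannot move a ratio of a gene that passes them, so only the 4 other library scalings bear on the ratios of the 6 genes. Of 72 ratios recomputed under these scalings 3 changed sign, all among the 18 under scaling to corneal epithelial markers and all near equal levels (Nfat5 and Sgk1 in excision against sham, Akr1b3 in PNU-282987 against sham). That scaling shifted the median log2 ratio of all genes to -0.13, -0.06 and -0.19 in excision against sham, PNU-282987 against excision and PNU-282987 against sham, and the median of the 6 genes to -0.0216, 0.102 and -0.00123. Scaled to total counts, the median of the 6 was 0.0314 in excision against sham and 0.112 in PNU-282987 against sham. Median-of-ratios factors, and TMM without the tissue and interferon lists, gave ratios inside the counting intervals for all 6. Counting Slc5a3 with Mrps6 was chosen as an alternative once the data had been seen. The sum was 1.54-fold higher in PNU-282987 than in excision. Most counts of the sum are of Mrps6 (550, 363 and 513, beside 134, 84 and 208 of Slc5a3). The sum therefore does not measure Slc5a3 again.

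The number of the 6 genes past the limit was 2, 1 and 2 at 1.5-fold, and Slc5a3 in PNU-282987 against excision was lost at 3-fold, leaving 0. The number of all genes higher and lower depended on the filter and limit by construction. With at least 100 counts these were 237 and 313 in excision against sham, 224 and 287 in PNU-282987 against excision, and 127 and 199 in PNU-282987 against sham. With no filter, 948 were higher in excision than in sham, 1240 lower in PNU-282987 than in excision, and 649 higher and 1080 lower in PNU-282987 than in sham. At 1.5-fold the counts were 1166 and 1281, 1081 and 1582, and 712 and 1376. At 3-fold they were 288 and 422, 283 and 389, and 161 and 293. With the settings of the report they were 568 and 777, 553 and 797, and 366 and 703.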

Other observations

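The deposited table carries Gene Ontology terms, and of the 6 genes only Akr1b3 has one that names an osmotic response. The 18 genes whose terms name a hyperosmotic response form another view of the same biology, chosen after the data were seen. Of 17 tested, none was at least 2-fold higher in any of the 3 comparisons. Aqp1 was the lower one in excision against sham, Rcsd1 (40 counts in the sham library, 41 after excision and 20 with PNU-282987) and Trpv4 in PNU-282987 against excision, and Tacr3, the neurokinin 3 receptor gene, in PNU-282987 against sham. These lower genes were 5.88%, 11.8% and 5.88% of the 17, beside 5.48%, 5.62% and 4.96% of all genes, on 1 or 2 genes each. Tacr3 had 149, 93 and 61 counts and was 2.43-fold lower in PNU-282987 than in sham (1.79 to 3.33). The DNA end-binding genes Xrcc5 and Xrcc6 had 1103, 807 and 1239 counts and 693, 653 and 887 counts. The medians were -0.01, 0.14 and 0.12 on the log2 scale, beside 0.00, 0.01 and 0.00 (rounded) over all genes tested.

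The wider set of 88 genes whose terms name any osmotic response or cell volume had 76 tested. In excision against sham 3 were at least 2-fold higher and 4 lower (3.95% and 5.26%, beside 4.01% and 5.48% of all genes). In PNU-282987 against excision they were 2 and 7 (2.63% and 9.21%, beside 3.90% and 5.62%). In PNU-282987 against sham they were 2 and 2 (2.63% each, beside 2.58% and 4.96%).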
